A study of Rattus norvegicus with 54 samples.

Results

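Hind limb skeletal muscle of Wistar rat foetuses was compared between foetal day 18 (F18, 5 arrays) and foetal day 20 (F20, 5 arrays). These are all the muscle arrays titled F18 or F20, 10 of the 54 arrays of the series, and the difference F20 minus F18 was fitted within the 30 muscle arrays (F16, F18, F20, F22 and postnatal days P1 and P4, 5 each). The labels name no treatment, and foetuses were delivered by Caesarean section. The series follows gene expression of liver and muscle around birth with an interest in mitochondrial metabolism, and the F18 arrays do not enter the study's own time series. The labels number the samples at each age as biological replicates 1 to 5. No source used here gives their sex or litter, or names the hind limb muscles taken. If foetuses of a group shared a litter, age and litter cannot be told apart.

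Between these ages the limb muscle of the rat forms its second wave of fibres along the first one, fills the fibres with contractile and calcium handling proteins and gathers acetylcholine receptors under the motor nerve ending. In the same days the bones of the limb ossify, and the skin over it builds the cornified layer that seals the animal before birth. RNA of a whole tissue piece mixes all of these. In such bulk samples, fewer cells of a type and less RNA per cell cannot be told apart.

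Values below are log2 signals of a gene's probe set, and a difference of 1 on this scale is 2-fold. Signals of different probe sets were not set against each other. Skeletal muscle identity was clear in all 10 arrays. The skeletal alpha-actin *Acta1* had signals of 13.19, 13.23, 13.33, 12.92 and 13.16 at F18 and 13.72, 13.56, 13.53, 13.91 and 13.86 at F20, and the muscle-specific creatine kinase *Ckm* had 11.08, 11.26, 11.24, 10.56 and 11.19 at F18 and 12.73, 12.46, 12.28, 13.08 and 12.95 at F20. Each array's mean correlation with its group ran from 0.994 to 0.996 at F18 and 0.991 to 0.994 at F20. The F20 arrays fell into 2 sets. Replicates 1, 2 and 3 correlated with each other at 0.997 to 0.998, replicates 4 and 5 with each other at 0.997, and arrays of different sets at 0.987 to 0.991. On the first principal component of the 10 arrays, which held 64% of the variance, F18 arrays lay at 17.3 to 20.7, F20 replicates 1 to 3 at -14.8, -11.6 and -7.35, and replicates 4 and 5 at -32.5 and -30.1. On this component, replicates 4 and 5 thus stood farther from F18 in the same direction. The second component held 13.4% of the variance and also split the F20 arrays. There replicates 4 and 5 lay at 12.6 and 10.5, replicates 1 to 3 at -12.5, -12.7 and -12.6, and F18 arrays at -1.88 to 10.2. At F18, replicates 2 and 4 stood apart in the smooth muscle gene *Cnn1* (10.63 and 10.71, against 7.86 to 8.06 in the other 3), and replicate 4 was the lowest array for many muscle genes. Differences of named genes that moved by over 1.5 times or lost their call without F20 replicates 4 and 5 are given both ways, and list counts that moved by as much are given beside the first count. With fewer arrays the test has less power, so a call can be lost there although the difference stays.

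Of 15310 probe sets with a single gene symbol, 4678 (30.6%) differed between F18 and F20 with an adjusted p up to 0.05. Of them 2242 rose (14.6% of those tested) and 2436 fell (15.9%). More than 2-fold rises were far more frequent than falls of this size, with 218 (1.42%) against 31 (0.202%). Without F20 replicates 4 and 5, 1262 rose and 1355 fell. With 1 probe set per gene, 2152 of 14506 genes rose (14.8%) and 2310 fell (15.9%), and the median difference over all genes was -0.01 (median size 0.12). The 14.8% and 15.9% are the shares to set beside each count of list members below. The F18 and F20 arrays of a gene did not overlap for 3661 genes (25.2%), and 3310 of them (22.8%) also passed the test. The 15 highest and 15 lowest differences named below were picked among these 3310 genes. Their separate groups therefore follow from the choice and add nothing to the test. More than 2-fold changes that passed came to 1.48% rising and 0.2% falling genes, 1.68% in all (1.63% of probe sets).

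**Figure D1:**
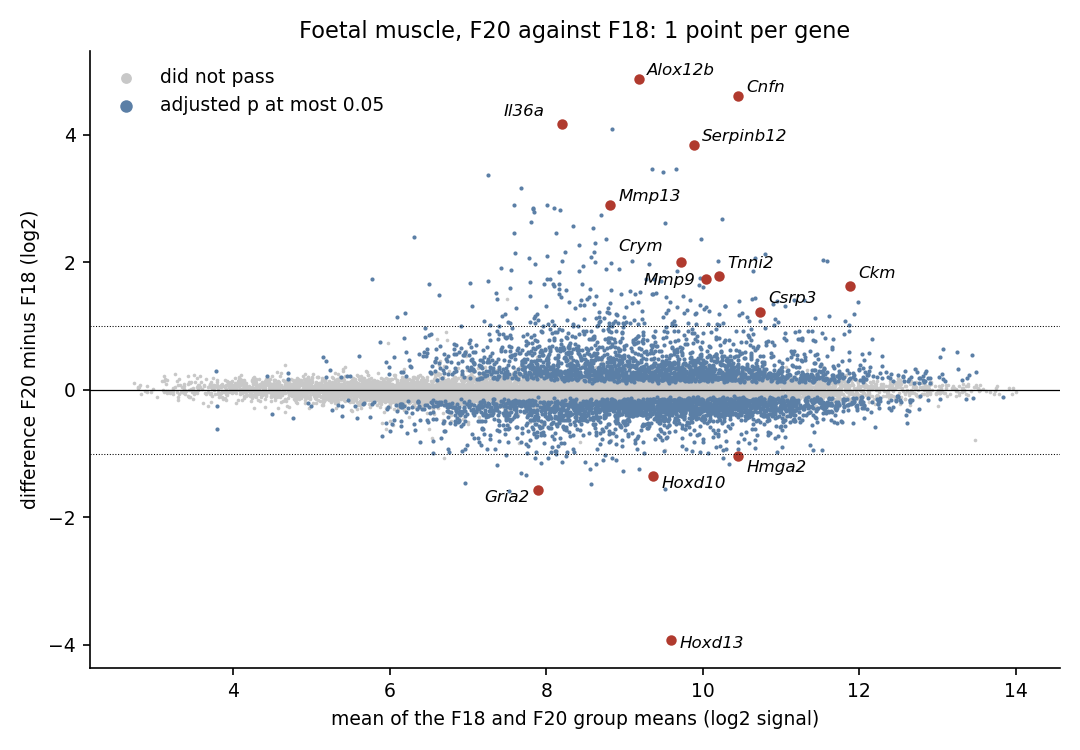
Difference F20 minus F18 (log2, vertical axis) against the mean of both group means (log2 signal, horizontal axis), with 1 point for each of 14506 genes. Blue points passed the test, dotted lines mark 2-fold, and red points are genes named in the text; *Alox12b* and *Cnfn* stand at the top with 4.88 and 4.60, and *Hoxd13* alone at the bottom with -3.92.

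The 2 highest rises of the whole comparison were genes of the outer epidermis and not of muscle fibres. *Alox12b*, a lipoxygenase that processes the lipids of the skin barrier, had signals of 6.56, 6.75, 6.69, 6.69 and 7.02 at F18 and 11.57, 11.27, 11.28, 11.99 and 12.002 at F20. All F20 arrays lay far above all F18 arrays, a difference of 4.88 ± 0.26 (SE, adjusted p = 2.01e-13), or 29.5-fold. *Cnfn*, which encodes the cornified envelope protein cornifelin, had 7.81, 8.09, 8.13, 8.18 and 8.51 at F18 and 12.63, 12.37, 12.48, 13.21 and 13.04 at F20. Its difference was 4.60 ± 0.22 (SE, adjusted p = 1.66e-14), or 24.3-fold. Of the 16 measured genes of the cornified envelope and the lipid barrier, 16 rose and 15 of them more than 2-fold, with a median difference of 1.65. This group was assembled after its values were seen and shows the extent of the change, not a test of it. The ceramidase *Acer1* rose by 2.57 ± 0.20 and the secreted keratinocyte protein suprabasin (*Sbsn*) by 2.12 ± 0.19 (SE, adjusted p = 1.65e-10 and 4.33e-09).

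Inflammatory ligands and protease inhibitors of the skin rose with them. The interleukin 36 cytokines *Il36a*, *Il36g* and *Il36b*, signals made by keratinocytes, rose by 4.17 ± 0.31, 4.10 ± 0.26 and 2.85 ± 0.33. Their natural antagonist *Il36rn* rose by 2.62 ± 0.28 (SE, adjusted p = 1.26e-10, 3.91e-12, 2.03e-07 and 5.38e-08). *Il36a* had signals of 5.94, 6.18, 6.10, 6.21 and 6.13 at F18 and 10.27, 10.01, 9.75, 10.84 and 10.55 at F20. It was near one level in all F18 arrays and far above it in each F20 array. Of 9 interleukin 1 and 36 genes measured, 8 rose and 0 fell (median 1.05; 5 rose without F20 replicates 4 and 5), in a list drawn up after values were seen. Among clade B serpins, inhibitors of proteases inside cells, 9 of 14 rose and 0 fell, against 14.8% of all genes that rose. This list too was drawn up after values were seen, and both counts show the extent of the change, not a test of it. *Serpinb12* rose by 3.84 ± 0.29, and *Serpinb2* by 3.17 ± 0.27 (SE, adjusted p = 1.42e-10 and 1.54e-09). The secreted protease inhibitor *Slpi* and the beta-defensin *Defb4*, both antimicrobial, showed the split of the F20 arrays. *Slpi* had 7.90, 7.71, 7.85, 8.20 and 7.93 at F18 and 10.96, 10.53, 10.52, 12.33 and 12.58 at F20. *Defb4* had 6.07, 6.17, 5.94, 6.19 and 6.29 at F18 and 8.61, 8.57, 7.75, 10.25 and 10.005 at F20. Both were highest in F20 replicates 4 and 5, and both were above F18 in the other 3 as well. Without those 2 arrays their differences were 2.75 and 2.18 (adjusted p = 4.51e-06 and 5.09e-09).

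**Figure D2:**
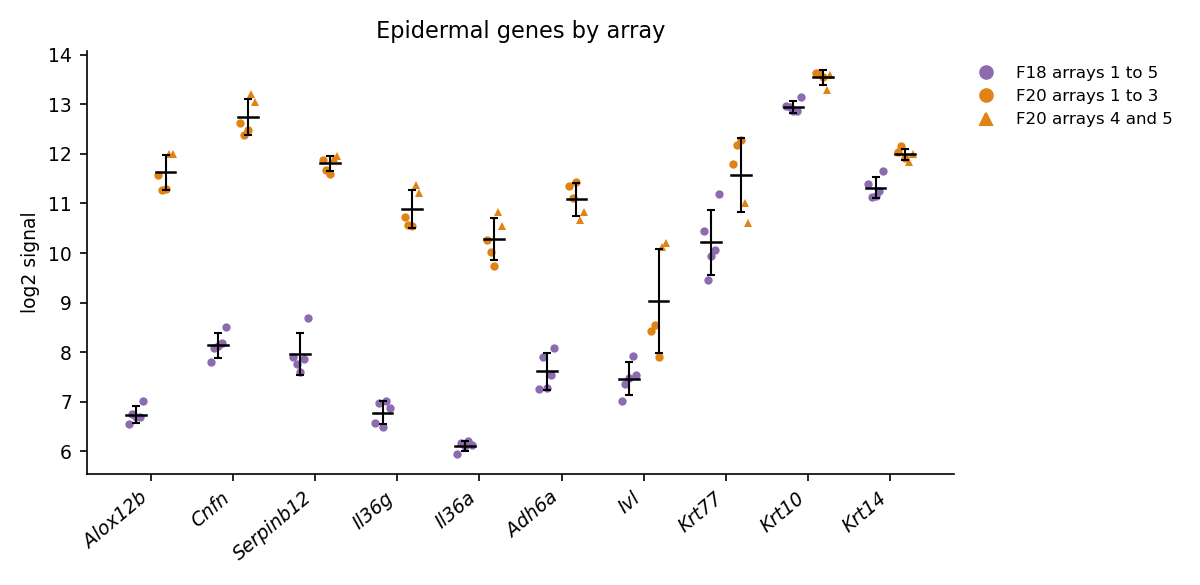
Log2 signals of 10 epidermal genes in each F18 array (purple) and F20 array (orange, with triangles for replicates 4 and 5); horizontal bars are group means and error bars SDs (n = 5). The groups of *Alox12b* to *Adh6a* are far apart, *Ivl* is high in 2 F20 arrays (10.11 and 10.20), and *Krt77* is lower in the same 2 (11.00 and 10.60).

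Most keratinocyte markers rose as well. Of 12 keratinocyte markers measured, 9 rose and 0 fell, with a median of 0.65, and their mean signal went from 10.05 to 10.52 in F18 arrays to 10.82 to 11.15 in F20 arrays. Epidermal RNA was therefore present at both ages. Over all 43 keratins measured, a list drawn up after values were seen, 9 rose and 4 fell (median 0.03), and 11 rose and 0 fell without F20 replicates 4 and 5. Of all genes 14.8% rose and 15.9% fell, so that keratins as a whole did not stand out. The falls among keratins were 2 without F18 replicate 2, F20 replicate 4 or F20 replicate 5. *Krt14*, the keratin of the basal cells, had 11.39, 11.14, 11.15, 11.25 and 11.66 at F18 and 12.04, 12.15, 11.91, 11.84 and 11.99 at F20 and rose by 0.67 ± 0.13 (SE, adjusted p = 0.000235). The keratins of the first suprabasal cells, *Krt1* and *Krt10*, rose by 0.64 ± 0.17 and 0.59 ± 0.15 (adjusted p = 0.00383 and 0.00289). *Tp63*, the transcription factor that maintains basal cells, had 9.36, 9.17, 9.18, 9.11 and 9.37 at F18 and 9.54, 9.70, 9.48, 8.44 and 8.77 at F20. Its F20 arrays lay on both sides of F18, with a difference of -0.053 ± 0.17 (SE, adjusted p = 0.859) that became 0.33 (adjusted p = 0.0889) without F20 replicates 4 and 5. What part the amount of skin in the dissected pieces has in the rise of the barrier genes was not tested.

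Epidermal genes differed in timing. *Krt10* rose from 9.48 at F16 to 12.95 at F18, before the interval, and its change from F18 to F20 minus that from F16 to F18 was -2.88 (adjusted p = 7.95e-08). *Krt1* behaved likewise, with -3.15 (adjusted p = 7.95e-08). For *Alox12b* the sign was the opposite. It stood at 6.37 at F16 and 6.74 at F18, and the same contrast was 4.51 (adjusted p = 1.90e-07). *Involucrin* (*Ivl*), another envelope protein, had 7.01, 7.36, 7.48, 7.92 and 7.55 at F18 and 8.42, 8.55, 7.90, 10.11 and 10.20 at F20. Its groups overlapped, the F20 mean was carried by replicates 4 and 5, and the difference of 1.57 ± 0.32 (SE, adjusted p = 0.000396) was 0.83 (adjusted p = 0.0205) without them.

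A set of genes with high F20 signals was lower again at F22. The difference between the F20 to F22 change and the F18 to F20 change, tested as a contrast of its own, was -6.79 for *Il36a*, -5.64 for the alcohol dehydrogenase *Adh6a*, -5.56 for *Defb4*, -5.24 for the cytochrome P450 *Cyp2f4* and -4.98 for the keratin *Krt77* (adjusted p = 1.68e-09, 1.57e-07, 1.76e-08, 2.28e-07 and 2.24e-07). *Adh6a* had 7.26, 7.91, 7.28, 7.53 and 8.08 at F18 and 11.36, 11.11, 11.43, 10.67 and 10.83 at F20, and its mean was 8.91 at F22 and 7.81 at P1. *Il36a* went back from 10.28 to 7.66 at F22 and 6.03 at P1. *Krt77* was a special case, since it was already 10.22 at F18 against 7.08 at F16, peaked at 11.57 and was 7.94 at F22. *Alox12b* and *Cnfn* in contrast kept 11.48 and 12.33 at F22. In the F20 group, *Adh6a*, *Cyp2f4* and *Krt77* were lower in replicates 4 and 5 than in the other 3, while *Defb4*, *Slpi* and *Ivl* were higher.

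**Figure D3:**
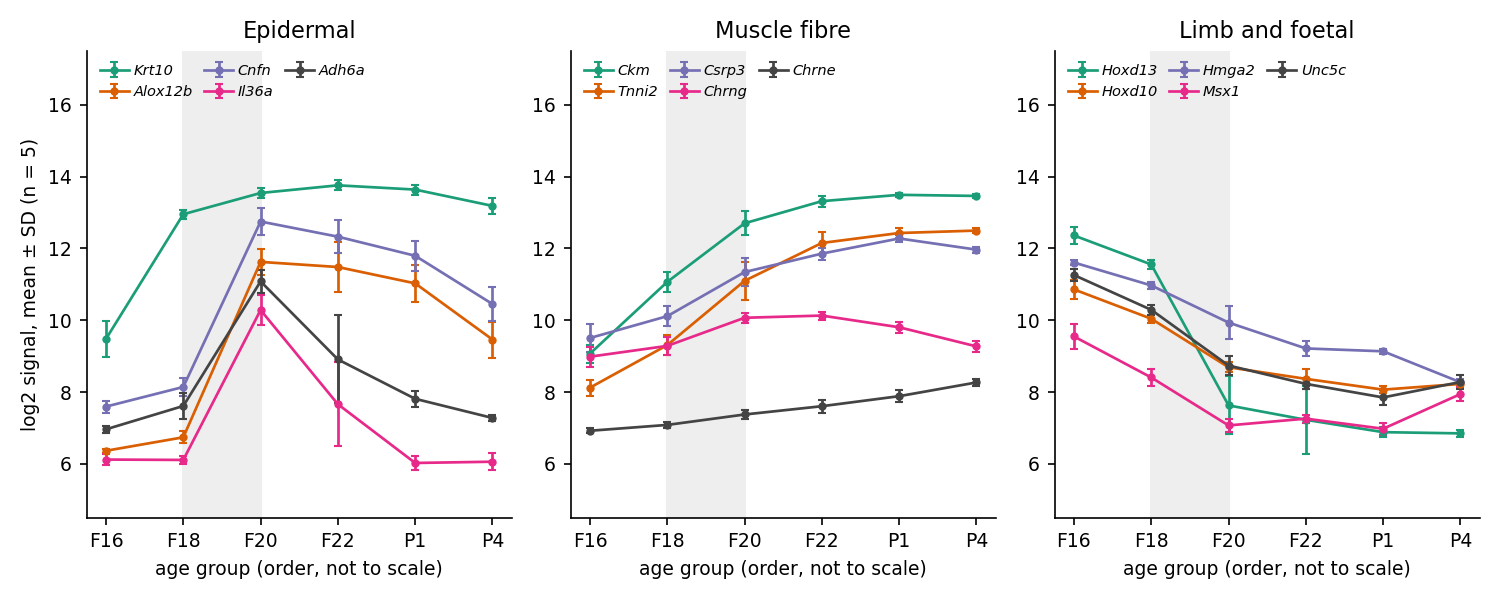
Mean log2 signal ± SD (n = 5, vertical axis) at the 6 ages in order (horizontal axis, not to scale) for 5 epidermal, 5 muscle fibre and 5 limb or foetal genes; grey marks the interval from F18 to F20. *Krt10* rises before it, *Alox12b* and *Cnfn* within it, *Il36a* and *Adh6a* peak at F20, and *Hoxd13* drops from 11.55 to 7.63 within it.

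The deepest fall was that of *Hoxd13*, the Hox gene of the most distal limb (and of the digits). Its signals were 11.66, 11.55, 11.65, 11.54 and 11.36 at F18 and 7.11, 8.05, 8.85, 7.03 and 7.1 at F20. All F20 arrays lay far below the lowest F18 array, and the F20 values themselves were spread, highest in replicate 3. The difference was -3.92 ± 0.31 (SE, adjusted p = 3.08e-10), a 15.2-fold drop. The F18 to F20 change minus the F16 to F18 change was -3.12 (adjusted p = 0.000378), and the F20 to F22 change minus the F18 to F20 change was 3.52 (adjusted p = 0.0001). What share of distal limb tissue each piece held is not known from the labels, and its part in this difference was not tested.

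Other genes that lay out the limb in the embryo fell too. Of 19 limb identity genes measured, 12 fell and 0 rose (median -0.39), against 15.9% of all genes that fell. Without F20 replicate 2 or 3, 1 rose. *Hoxd10* had 10.20, 9.92, 10.12, 9.99 and 9.98 at F18 and 8.48, 8.80, 8.83, 8.69 and 8.67 at F20 and fell by 1.35 ± 0.11 (SE, adjusted p = 4.16e-10). *Msx1* and *Msx2*, homeobox genes of undifferentiated limb mesenchyme, had differences of -1.33 ± 0.13 and -1.07 ± 0.099 (adjusted p = 1.12e-08 and 5.79e-09). *Tbx4*, the T-box gene that marks the hind limb, had 11.13, 10.92, 11.28, 11.07 and 10.92 at F18 and 9.99, 10.47, 10.62, 10.05 and 10.23 at F20 and a difference of -0.79 ± 0.15 (SE, adjusted p = 0.000114). The groups did not overlap for any of these 4 genes. *Meis2*, a gene of the proximal limb, fell as well (-0.89 ± 0.16, adjusted p = 0.000114), with 1 high F18 array (10.91 in replicate 2 against 9.94 to 10.04 in the others). *Lhx9* and *Dbx2*, homeobox genes, and *Stra6*, the cellular retinol uptake receptor, had differences of -1.23 ± 0.11, -1.31 ± 0.10 and -1.27 ± 0.079 (adjusted p = 2.35e-09, 1.93e-10 and 3.91e-12). Over all 22 Hox genes measured, a list drawn up after values were seen, 4 fell and 0 rose with a median of -0.08 (1 rose without F20 replicate 3).

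Genes known from neurons and from nerve guidance fell as well. The cells that held their RNA are not known from these bulk samples. *Gria2*, an AMPA glutamate receptor subunit, had 8.87, 8.28, 8.96, 8.69 and 8.63 at F18 and 7.07, 7.53, 7.90, 6.40 and 6.68 at F20 and fell by 1.57 ± 0.22 (SE, adjusted p = 2.99e-06). *Unc5c*, a netrin receptor that repels growing axons, had 10.24, 10.26, 10.37, 10.47 and 10.11 at F18 and 8.44, 8.82, 9.10, 8.58 and 8.76 at F20 and fell by 1.55 ± 0.12 (SE, adjusted p = 1.42e-10). Separate groups were a condition for the choice of both genes. The sialyltransferase *St6gal2*, the septin *Septin3*, the cadherin *Cdh10*, the vesicular glutamate transporter *Slc17a6* and the ephrin *Efnb3* had differences of -1.58 ± 0.14, -1.48 ± 0.17, -1.46 ± 0.17, -1.17 ± 0.17 and -1.16 ± 0.084 (adjusted p from 7.10e-11 to 5.01e-06). Of 52 ephrins, Eph receptors, semaphorins, plexins, netrins, Slits and their receptors, 30 fell and 9 rose (median -0.25), in a list drawn up after values were seen. Of 13 neuron markers, 7 fell and 0 rose (median -0.34; 4 fell and 1 rose without F20 replicates 4 and 5), and their mean signal went from 7.89 to 8.11 in F18 arrays to 7.65 to 7.85 in F20 arrays. The neurofilament *Nefl* had 8.63, 8.57, 8.43, 8.76 and 8.36 at F18 and 7.86, 8.02, 7.86, 7.97 and 8.10 at F20, with a difference of -0.59 ± 0.11 (SE, adjusted p = 0.00023). The intermediate filament of peripheral neurons *Prph* and the synaptic protein *Snap25* had -0.44 ± 0.087 and -0.47 ± 0.12 (adjusted p = 0.000273 and 0.00297). *Isl1*, a motor neuron factor, only just passed (-0.50 ± 0.19, adjusted p = 0.0497) and rested on 1 F18 array, since replicate 2 had 8.79 against 7.19 to 7.46 in the others. Without it the difference was -0.21 (adjusted p = 0.228), and without F20 replicates 4 and 5 it was -0.42 (adjusted p = 0.228). Among the neuron markers 1 also rose without F18 replicate 2 or 3 or F20 replicate 4 or 5. Of 15 Schwann cell genes 5 rose and 1 fell (median 0.09), and 3 rose and 0 fell without F20 replicates 4 and 5. The fall was also lost without F18 replicate 1, 2 or 3 or F20 replicate 2, 4 or 5.

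**Figure D4:**
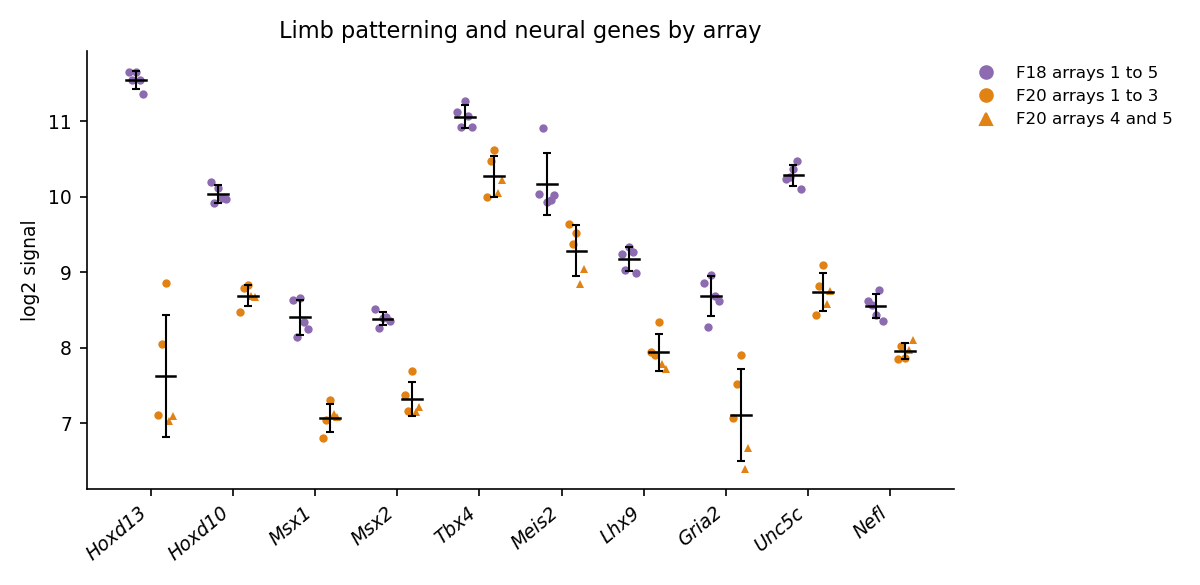
Log2 signals of 10 limb patterning and neural genes in each F18 array (purple) and F20 array (orange, with triangles for replicates 4 and 5); bars are group means and error bars SDs (n = 5). *Hoxd13* shows the widest gap, with F18 arrays at 11.36 to 11.66 and F20 arrays at 7.03 to 8.85, and for *Meis2* a single F18 array stands at 10.91.

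In the muscle fibre itself, contractile genes rose broadly. Of 31 genes of the Z-disc, M-band, giant and thin filament proteins, 26 rose and 0 fell (median 0.78), of 14 slow fibre genes 12 rose and 0 fell (median 0.84), and of 16 fast fibre genes 9 rose and 0 fell (median 0.72; 1 fell without F18 replicate 5 or F20 replicate 4), against 14.8% of all genes. *Tnni2*, the fast troponin I, had 9.48, 9.50, 9.50, 8.84 and 9.21 at F18 and 10.97, 10.66, 10.56, 11.76 and 11.53 at F20 and rose by 1.79 ± 0.18 (SE, adjusted p = 1.71e-08). *Myoz1*, which ties calcineurin to the Z-disc of fast fibres, had 7.52, 7.41, 7.45, 7.77 and 7.48 at F18 and 9.30, 9.04, 8.83, 10.57 and 10.34 at F20 and rose by 2.09 ± 0.23 (SE, adjusted p = 8.73e-08). In both genes, F20 replicates 4 and 5 were above the other 3 F20 arrays and all 5 were above F18. The kinase of the fast light chain *Mylk2*, fast troponins *Tnnc2* and *Tnnt3*, the calcium pump *Atp2a1* and the fast light chain *Myl11* rose by 1.48 ± 0.17, 1.32 ± 0.17, 1.15 ± 0.14, 1.07 ± 0.17 and 1.01 ± 0.15 (adjusted p from 2.57e-07 to 2.18e-05). On the slow side, the light chains *Myl3* and *Myl2* rose by 1.40 ± 0.21 and 1.35 ± 0.19, the stretch sensing protein *Csrp3* by 1.23 ± 0.16, and the troponins *Tnnc1* and *Tnni1* by 0.93 ± 0.19 and 0.79 ± 0.13 (adjusted p from 9.27e-07 to 0.000398). *Tmod4*, which caps thin filaments, rose by 1.86 ± 0.16 and the Z-disc protein *Ldb3* by 1.39 ± 0.15 (adjusted p = 1.71e-09 and 9.96e-08).

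The adult fast myosin heavy chains did not pass the test. *Myh2* had 6.88, 6.88, 6.79, 6.92 and 6.71 at F18 and 6.89, 6.88, 6.77, 6.76 and 6.82 at F20, and *Myh1* and *Myh4* had differences of 0.074 ± 0.12 and 0.23 ± 0.094 against -0.015 ± 0.10 for *Myh2* (adjusted p = 0.7, 0.0662 and 0.937). The calcium buffer of fast fibres *Pvalb* had a difference of 0.23 ± 0.15 (adjusted p = 0.277), which was 0.088 (adjusted p = 0.785) without F20 replicates 4 and 5. The sign of *Myh1* and *Myh2* changed with other scalings or left-out arrays. The slow heavy chain *Myh7* rose by 0.53 ± 0.16 (SE, adjusted p = 0.0101), which was 0.44 (adjusted p = 0.109) without F20 replicates 4 and 5. The embryonic heavy chain *Myh3* had 12.60, 12.53, 12.74, 12.27 and 12.70 at F18 and 13.04, 12.88, 12.85, 12.83 and 12.86 at F20, a difference of 0.32 ± 0.13 (SE, adjusted p = 0.0563). Actins and a cardiac isoform of early muscle rose, since cardiac alpha-actin *Actc1*, cardiac troponin T *Tnnt2* and *Acta1* rose by 0.28 ± 0.050, 0.60 ± 0.12 and 0.55 ± 0.088 (adjusted p = 6.63e-05, 0.000338 and 2.06e-05). Sequences of myosin heavy chain and actin genes are alike, so that their probe sets may share signal.

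Myogenic regulators rose in unequal measure. *Myf6*, the regulatory factor of late differentiation, had 7.84, 7.85, 7.75, 7.17 and 7.52 at F18 and 9.02, 8.75, 8.65, 10.19 and 9.85 at F20 and rose by 1.66 ± 0.20 (SE, adjusted p = 5.02e-07). Replicates 4 and 5 were above the other F20 arrays, and without them the rise was 1.18 (adjusted p = 3.09e-06). *Myog*, which starts fibre differentiation, rose by 0.76 ± 0.11, *Myf5* by 0.70 ± 0.12 and *Mymk*, which fuses myoblasts, by 0.82 ± 0.13 (adjusted p = 1.05e-05, 6.55e-05 and 1.47e-05). *Myod1* rose by 0.49 ± 0.12 (SE, adjusted p = 0.00324), a call that was lost without F20 replicates 4 and 5 (0.29, adjusted p = 0.122). The F18 to F20 change of *Myog*, *Myod1*, *Myf5* and *Mymk* was more positive than their F16 to F18 change by 0.83, 0.95, 0.74 and 0.92 (adjusted p = 0.00581, 0.00447, 0.0179 and 0.00614). Both changes share the F18 arrays, of which replicate 4 was low for many muscle genes. For single genes this contrast was not examined with arrays left out. *Myod1* had means of 9.91, 9.45 and 9.94 at F16, F18 and F20. *Id2*, an inhibitor of these factors, fell by 0.54 ± 0.081 (SE, adjusted p = 8.11e-06). Of all 36 regulators of myogenesis measured, 16 rose and 5 fell (median 0.12).

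Most genes of the neuromuscular junction rose. Of 16 measured, 12 rose and 1 fell (median 0.37; 2 fell without F20 replicate 1, 2 or 3). *Chrng*, the foetal gamma subunit of the acetylcholine receptor, had 9.42, 9.33, 9.49, 8.86 and 9.33 at F18 and 10.12, 9.87, 9.98, 10.24 and 10.14 at F20 and rose by 0.78 ± 0.11 (SE, adjusted p = 6.85e-06). *Chrne*, the epsilon subunit that replaces it in the adult, had 7.07, 7.21, 7.03, 7.04 and 7.07 at F18 and 7.38, 7.27, 7.26, 7.51 and 7.46 at F20 and rose by 0.29 ± 0.077 (SE, adjusted p = 0.00447), which was 0.22 (adjusted p = 0.0904) without F20 replicates 4 and 5. Both groups of each gene were separate. The shared subunits *Chrna1*, *Chrnb1* and *Chrnd* rose by 0.47 ± 0.10, 0.58 ± 0.10 and 0.75 ± 0.091, the receptor kinase *Musk* by 0.44 ± 0.096 and the receptor anchor *Rapsn* by 0.56 ± 0.11 (adjusted p from 4.28e-07 to 0.000699). The gene that fell was *Agrn*, which encodes agrin, a signal to that kinase. It had 11.05, 10.93, 11.02, 10.96 and 11.04 at F18 and 10.70, 10.69, 10.74, 10.35 and 10.53 at F20. Its difference was -0.40 ± 0.077 (SE, adjusted p = 0.000206). Which cells of these bulk samples held this RNA is not known.

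Since these genes moved together, their promoters were searched for the E-box CAGCTG, a motif that myogenic regulatory factors can bind and that reads the same on both strands. In the 250 bases before the gene start it occurred in 6 of the 12 junction genes with a RefSeq promoter, in 4 of 11 slow and 4 of 14 fast fibre genes, and in 12.3% of the promoters of 11968 genes tested. *Chrnd* and *Rapsn*, which also rose, were not among those 6. *Myog*, *Myf6* and *Mymk* were looked up together with *Ckm* and gave no match, so that only genes with a match are shown. Shown are 30 bases around the E-box (in capitals) nearest to the start, 5′ to 3′ on the gene's strand, for 4 receptor subunits, *Musk* and *Ckm*, whose values are given above.
Chrna1: taacttgagagtCAGCTGgcccaaggcctg
Chrnb1: cgggtgggctggCAGCTGgtcccccgacaa
Chrng: ataccctgggaaCAGCTGacaatgaagtag
Chrne: cacaggatgaggCAGCTGcctcttccaccc
Musk: gtgagtactcccCAGCTGgccttgtccatc
Ckm: gagctgaaagctCAGCTGccctcaggggcc
In the rat build GRCr8 these windows lie at chr3:78877363-78877392 (minus strand) for *Chrna1*, chr10:55015131-55015160 (minus strand) for *Chrnb1*, chr9:95325946-95325975 (plus strand) for *Chrng*, chr10:55834253-55834282 (minus strand) for *Chrne*, chr5:77853645-77853674 (plus strand) for *Musk* and chr1:88189374-88189403 (plus strand) for *Ckm*. The motif began 27, 41, 26, 116, 79 and 75 bases before the gene start in that order. A match of letters is a description of the sequence and no evidence that a factor was bound there.

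Excitation and energy supply of the fibre rose with the contractile genes. Of 23 calcium handling genes, 19 rose and 1 fell (median 0.64; 0 fell without F20 replicate 4 or without F20 replicates 4 and 5). The triad membrane protein *Sypl2* rose by 1.45 ± 0.19, the channel subunit *Cacng1* by 1.28 ± 0.16, the calcium pump regulator sarcolipin (*Sln*) by 1.19 ± 0.15 and *Stac3*, needed for coupling of excitation to contraction, by 1.01 ± 0.13 (SE, adjusted p from 7.00e-07 to 1.14e-06). Of 15 genes listed for sarcolemma channels and pumps, 7 rose and 1 fell. The largest rise in this list was that of *Atp1b4* (1.17 ± 0.16, adjusted p = 3.95e-06), and where its protein lies was not measured. Without F20 replicates 4 and 5, 4 of the 15 rose and 2 fell. The falls were 0 or 2 without any 1 array other than F18 replicate 2 and F20 replicate 1. The caveolar protein *Cav3*, the laminin receptor *Itga7* and the sarcoglycan *Sgca* rose by 1.18 ± 0.17, 1.06 ± 0.11 and 1.03 ± 0.13 (adjusted p = 4.38e-06, 2.56e-08 and 1.14e-06), and of 13 genes of the dystrophin complex 8 rose and 0 fell (median 0.53).

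All 8 measured genes of creatine and adenylate metabolism rose (median 0.80). *Ckm* rose by 1.63 ± 0.13 and *Ampd1*, the muscle AMP deaminase, by 1.62 ± 0.17 (SE, adjusted p = 3.82e-10 and 4.03e-08). Glycolysis was split, since 14 of 32 genes rose, 2 fell (1 without F18 replicate 3 or F20 replicate 1) and the median was 0.15. Those that rose most were the muscle isoforms, glycogen phosphorylase *Pygm* with 10.74, 10.68, 10.80, 10.14 and 10.63 at F18 and 11.96, 11.69, 11.68, 12.38 and 12.29 at F20, phosphoglycerate mutase *Pgam2* and enolase *Eno3*. Their differences were 1.40 ± 0.15, 1.21 ± 0.14 and 1.07 ± 0.13 (SE, adjusted p = 4.22e-08, 1.62e-07 and 2.60e-07). F18 replicate 4 was the lowest F18 array for each of them and for *Ckm*, and without it their calls were kept, with differences of 1.29, 1.11, 0.95 and 1.51.

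Mitochondrial genes rose by little, and the number of calls depended on single arrays. Of 67 respiratory chain and ATP synthase genes, 45 rose and 0 fell with a median of 0.23, but 10 rose without F20 replicates 4 and 5 and 29 without F20 replicate 4 alone. Of 69 mitochondrial ribosomal proteins, 28 rose and 0 fell (median 0.15), and 0 rose without those arrays. Single arrays moved this count too, to 11 to 17 without F18 replicate 2, 3, 4 or 5 or F20 replicate 4 or 5. In the interval before, 30 of the 67 respiratory chain genes fell and 0 rose (median -0.16), against 19.3% of all probe sets that fell. In the contrast of both changes, the F18 to F20 change was the more positive one for 43 of the 67. Of all probe sets, 9.33% were more positive in this contrast and 17.2% passed in either direction. The complex I subunit *Ndufa1* had 8.50, 8.32, 8.35, 8.31 and 8.39 at F18 and 8.59, 8.78, 8.61, 9.30 and 9.18 at F20. Its rise of 0.52 ± 0.11 (SE, adjusted p = 0.000881) was 0.29 (adjusted p = 0.0521) without replicates 4 and 5. The muscle isoforms of cytochrome c oxidase, *Cox6a2* and *Cox8b*, stood out from the list with 1.32 ± 0.19 and 1.41 ± 0.18 (SE, adjusted p = 7.74e-06 and 1.13e-06). *Cox6a2* had 9.60, 9.81, 9.79, 9.33 and 9.57 at F18 and 10.92, 10.57, 10.41, 11.51 and 11.28 at F20, with separate groups also among the first 3 F20 arrays. Of 18 citric acid cycle genes, 8 rose and 0 fell (median 0.16; 2 rose without those arrays and 5 without F20 replicate 4 or 5).

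Fat oxidation was led by its muscle entry step. *Cpt1b*, the muscle carnitine palmitoyltransferase, had 7.87, 7.97, 7.92, 7.56 and 7.68 at F18 and 9.17, 8.82, 8.68, 9.81 and 9.69 at F20 and rose by 1.43 ± 0.17 (SE, adjusted p = 2.48e-07). *Acsl1*, which activates fatty acids, rose by 1.04 ± 0.14, *Pdk4*, a brake on pyruvate oxidation, by 0.93 ± 0.16, the nuclear receptor *Ppara* by 0.62 ± 0.14 and the coactivator *Ppargc1a* by 0.38 ± 0.093 (SE, adjusted p from 2.63e-06 to 0.00221). Of 25 genes of fatty acid oxidation, 13 rose and 0 fell (median 0.19; 6 rose without F20 replicates 4 and 5). Of 12 genes of coenzyme Q synthesis, a theme of the study, 1 rose and 0 fell (median 0.05). That was the methyltransferase *Coq3*, with 9.58, 9.69, 9.59, 9.56 and 9.68 at F18 and 9.73, 9.75, 9.76, 9.94 and 9.90 at F20 and a difference of 0.20 ± 0.071 (SE, adjusted p = 0.0374), which was 0.13 (adjusted p = 0.317) without those 2 arrays and was also lost without F18 replicate 4 (0.18, adjusted p = 0.0793), F18 replicate 1 or 3 or F20 replicate 4 or 5. *Coq5* had 0.20 ± 0.077, *Coq4* -0.090 ± 0.057 and the regulator *Coq8a* -0.031 ± 0.16 (SE, adjusted p = 0.0522, 0.247 and 0.915). *Coq8a* had 7.45, 7.58, 7.63, 7.71 and 7.47 at F18 and 7.33, 7.44, 7.46, 7.75 and 7.70 at F20, and these groups overlapped. Its difference was -0.16 (adjusted p = 0.631) without F20 replicates 4 and 5.

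Most genes of proliferation did not pass the test. Of 35 cell cycle genes, 5 fell and 2 rose (median -0.06), against the 30.8% of all genes that passed in either direction, and 0 fell and 0 rose without F20 replicates 4 and 5. Leaving out 1 array gave 0 to 8 falls and 0 to 2 rises, with 0 falls without F20 replicate 4 or 5, 1 without F18 replicate 1 or 3, 3 without F18 replicate 4 or 5 and 8 without F20 replicate 2. The rises were 0 without F20 replicate 5 and 1 without F18 replicate 2, 3, 4 or 5 or F20 replicate 1 or 4. The mitotic kinesin *Kif11* and the checkpoint kinase *Bub1* had differences of -0.29 ± 0.10 and -0.29 ± 0.11 (SE, adjusted p = 0.0254 and 0.0445), which were -0.14 and -0.17 without those 2 arrays (adjusted p = 0.39 and 0.379). The call of *Kif11* was also lost without F18 replicate 3 or F20 replicate 4 or 5, and that of *Bub1* without any 1 of F18 replicates 1, 3, 4 and 5 and F20 replicates 1, 4 and 5. *Cdkn1a*, the inhibitor p21 that accompanies cell cycle exit, had 10.01, 9.97, 10.09, 9.78 and 10.10 at F18 and 11.05, 10.88, 10.85, 11.48 and 11.45 at F20 and rose by 1.15 ± 0.13 (SE, adjusted p = 1.74e-07). *Hmga2*, a chromatin protein of foetal tissues, had 11.12, 10.91, 10.92, 10.92 and 10.96 at F18 and 10.17, 10.22, 10.42, 9.42 and 9.44 at F20 and fell by 1.03 ± 0.13 (SE, adjusted p = 8.74e-07). It was lowest in F20 replicates 4 and 5, and the groups were separate with or without them. The Polycomb methyltransferase *Ezh2* fell by 0.37 ± 0.076 (SE, adjusted p = 0.000377), with 6 of 12 epigenetic regulators falling and 1 rising (3 fell and 0 rose without those arrays).

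*Igf2*, the main growth factor of the foetus, did not pass the test. It had 13.02, 12.97, 13.04, 13.05 and 13.01 at F18 and 13.04, 13.06, 13.10, 13.11 and 13.15 at F20, and its difference was 0.073 ± 0.041 (SE, adjusted p = 0.186), while *H19*, the imprinted RNA next to it, had 0.084 ± 0.040 (adjusted p = 0.115). Of 19 imprinted genes 6 rose and 1 fell (2 rose and 0 fell without F20 replicates 4 and 5). Also, 0 fell without any 1 array other than F18 replicates 4 and 5 and F20 replicate 3. *Ndn*, which encodes necdin, rose by 0.61 ± 0.13 and *Dlk1* by 0.33 ± 0.086 (SE, adjusted p = 0.000758 and 0.00428). Without those arrays the differences were 0.40 and 0.24 (adjusted p = 0.0415 and 0.0903). The binding protein *Igfbp6* rose by 0.92 ± 0.14 and *Pappa*, a protease that frees IGF, fell by 0.55 ± 0.094 (SE, adjusted p = 1.10e-05 and 5.28e-05). In the TGF-beta superfamily, 14 of 34 genes fell and 6 rose (median -0.12; 11 fell and 3 rose without F20 replicates 4 and 5). *Ltbp1*, which stores TGF-beta in the matrix, and *Gdf10* fell by 0.83 ± 0.12 and 0.78 ± 0.11 (SE, adjusted p = 3.54e-06 and 3.27e-06). Myostatin (*Mstn*), the brake on muscle growth, had 10.42, 10.09, 10.51, 9.73 and 9.99 at F18 and 10.52, 10.54, 10.52, 10.74 and 10.45 at F20 and a difference of 0.41 ± 0.12 (SE, adjusted p = 0.0124), which was 0.38 (adjusted p = 0.0732) without F20 replicates 4 and 5 and 0.30 (adjusted p = 0.0585) without F18 replicate 4.

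Markers of bone rose together. Of 14 measured, 10 rose and 0 fell (median 0.78; 5 rose without F20 replicates 4 and 5), and the mean signal of the list went from 8.40 to 8.76 in F18 arrays to 9.16 to 9.95 in F20 arrays. Its part in other differences was not tested. The collagenase *Mmp13* had 7.25, 6.74, 7.69, 7.81 and 7.34 at F18 and 9.61, 9.73, 9.62, 11.21 and 11.12 at F20 and rose by 2.89 ± 0.48 (SE, adjusted p = 3.91e-05). *Mmp9* and *Acp5* of osteoclasts rose by 1.74 ± 0.39 and 0.90 ± 0.19, and *Ibsp* and *Spp1*, matrix proteins of bone, by 1.44 ± 0.37 and 1.43 ± 0.30 (SE, adjusted p = 0.000975, 0.000568, 0.00349 and 0.000541). For *Ibsp* the call was lost without replicates 4 and 5 (1.13, adjusted p = 0.0693), as it was for *Dmp1* of osteocytes (1.28 ± 0.29 with all arrays and 0.83 without those, adjusted p = 0.00126 and 0.0585) and the phosphatase *Alpl* (0.89 ± 0.27 and 0.57, adjusted p = 0.0107 and 0.197). Few cartilage markers passed, with 1 of 19 rising and 2 falling (0 rising without F20 replicate 4, 5 or both, and 2 without F20 replicate 2). The mean signal of the cartilage list split the F20 arrays. It was 8.84 to 9.18 in F18 arrays, 8.68 to 8.93 in F20 replicates 1 to 3, and 9.51 and 9.73 in F20 replicates 4 and 5. The cartilage collagen *Col2a1* had 11.03, 10.86, 11.26, 11.18 and 10.95 at F18 and 10.88, 10.83, 11.09, 11.33 and 11.56 at F20, with overlapping groups (difference 0.083 ± 0.23, adjusted p = 0.831; -0.12 without those arrays), while *Sox5* fell by 0.73 ± 0.088 and *Cytl1* by 0.79 ± 0.16 (adjusted p = 3.98e-07 and 0.000316).

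Connective tissue was mixed. Of 7 tendon markers 4 rose and 0 fell (median 0.51), with *Fmod* at 0.87 ± 0.17 and *Tnmd* at 0.67 ± 0.18 (SE, adjusted p = 0.000206 and 0.00514), the latter 0.47 (adjusted p = 0.111) without F20 replicates 4 and 5. Of 26 fibroblast genes 9 rose and 3 fell (median 0.07), and 5 rose and 2 fell without F20 replicates 4 and 5. The microfibril protein *Mfap5* rose by 1.32 ± 0.16, whereas *Pdgfra*, the receptor of undifferentiated mesenchyme, had 12.03, 12.01, 12.08, 11.999 and 12.02 at F18 and 11.55, 11.68, 11.75, 11.26 and 11.35 at F20 and fell by 0.51 ± 0.084 (SE, adjusted p = 2.92e-07 and 3.15e-05). Of 26 fibroblast genes 20 had risen from F16 to F18 (median 0.69), against 14.1% of all probe sets that rose. For 20 the later change was the more negative one in the contrast of both, against 7.86% of all probe sets.

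Tissue macrophages and mast cells gained in signal, and granulocyte genes lost. Of 16 macrophage markers 11 rose and 0 fell (median 0.41; 1 fell without F20 replicate 4, 5 or both), with mean signals of 8.54 to 8.78 at F18 and 8.94 to 9.50 at F20. *F13a1*, a marker of resident macrophages, had 9.04, 8.91, 8.56, 9.44 and 9.09 at F18 and 10.39, 10.46, 10.17, 10.90 and 10.52 at F20 and rose by 1.48 ± 0.13 (SE, adjusted p = 1.54e-09). The scavenger receptor *Cd163* and the complement gene *C1qa* rose by 1.07 ± 0.17 and 0.92 ± 0.10 (adjusted p = 2.06e-05 and 1.55e-07). Of 11 mast cell markers 6 rose and 0 fell (median 0.60; 4 rose without F20 replicates 4 and 5), with mean signals of 7.51 to 8.10 at F18 and 8.05 to 8.74 at F20. The tryptase *Tpsab1* had 7.102, 7.21, 7.02, 7.59 and 7.27 at F18 and 8.53, 8.75, 8.21, 10.23 and 9.75 at F20, with a rise of 1.85 ± 0.24 (SE, adjusted p = 1.36e-06), and *Mcpt1l1* of the mast cell protease family rose by 2.37 ± 0.23 (adjusted p = 1.15e-08). For chymase *Cma1* and carboxypeptidase *Cpa3* the F18 and F20 arrays overlapped, since F18 replicate 4 was high (8.91 and 10.16). Of 11 neutrophil granule genes 4 fell and 0 rose (median -0.26), with mean signals of 6.999 to 7.45 at F18 and 6.69 to 7.06 at F20. Without F18 replicate 5, 2 of them fell. *S100a9* had 7.46, 7.90, 7.36, 7.80 and 8.50 at F18 and 6.83, 6.67, 6.64, 7.096 and 7.15 at F20 and *Mmp8* 7.12, 7.48, 7.11, 7.27 and 8.05 at F18 and 6.36, 6.32, 6.20, 6.87 and 6.47 at F20. Their differences were -0.93 ± 0.19 and -0.96 ± 0.17 (SE, adjusted p = 0.000369 and 9.92e-05), and in both the highest array was F18 replicate 5.

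Vessels, fat and blood moved less evenly. Of 16 endothelial markers 10 rose and 0 fell (median 0.24), but 2 rose without F20 replicates 4 and 5 and 6 without F18 replicate 3, F18 replicate 4 or F20 replicate 5, and *Ramp2* had 0.53 ± 0.12 with all arrays and 0.32 without those (adjusted p = 0.0011 and 0.061). Of 16 adipocyte genes 4 rose and 0 fell. The fatty acid carrier *Fabp4* had 6.22, 6.30, 6.10, 6.27 and 6.01 at F18 and 7.58, 7.51, 7.17, 8.59 and 8.45 at F20 and rose by 1.68 ± 0.26, and *Dgat2*, which makes triglycerides, had 9.15, 9.04, 9.04, 9.004 and 9.22 at F18 and 10.91, 10.72, 10.68, 10.92 and 11.02 at F20 and rose by 1.76 ± 0.14 (SE, adjusted p = 1.23e-05 and 3.66e-10). *Dgat2* was level within both groups, unlike *Fabp4*, which was highest in F20 replicates 4 and 5. Of 14 erythroid genes 1 fell and 0 rose, the gamma globin *Hbg1* (-0.97 ± 0.36, adjusted p = 0.04; -0.74, adjusted p = 0.251, without those arrays). This call was also lost without any 1 of F18 replicates 2, 4 and 5 and F20 replicates 1, 4 and 5. Among 13 mural and smooth muscle genes 4 rose and 2 fell, and 1 rose and 1 fell without F20 replicates 4 and 5. The rises were 2 without F20 replicate 4 or 5, and the falls were 1 without F18 replicate 2 or 4 and 4 without F18 replicate 1, 3 or 5. Calponin (*Cnn1*) of smooth muscle had 8.06, 10.63, 8.05, 10.71 and 7.86 at F18 and 7.92, 7.86, 7.98, 7.94 and 7.94 at F20, so that F18 replicates 2 and 4 stood far above all other arrays, and the call of -1.14 ± 0.36 (SE, adjusted p = 0.0156) was lost when either was left out (-0.74 and -0.72, adjusted p = 0.0764 and 0.0759) and without F20 replicates 4 and 5 (-1.14, adjusted p = 0.0673). The mean signal of the list was 10.03 and 9.83 in these 2 arrays and 9.25 to 9.58 in the other 8. Its part in other differences was not tested.

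Smaller groups with single large changes were found among hormone, stress and turnover genes. *Crym*, which binds thyroid hormone in the cell, had 8.73, 8.62, 8.78, 8.66 and 8.77 at F18 and 10.95, 10.82, 10.60, 10.53 and 10.70 at F20. Its rise of 2.01 ± 0.20 (SE, adjusted p = 1.93e-08) came with a narrow spread over the F20 arrays. It was more positive than the F16 to F18 change by 2.39 (adjusted p = 5.86e-05), with means of 9.09, 8.71, 10.72 and 10.42 at F16, F18, F20 and F22. It was the only one of 9 thyroid hormone genes to rise, and 2 fell (0 without F20 replicates 4 and 5, and 0 or 1 without any 1 array other than F18 replicate 3). The glucocorticoid target *Zbtb16* rose by 1.00 ± 0.10 (SE, adjusted p = 3.60e-08), with 7 of 21 such genes rising and 1 falling, beside 30.8% of all genes that passed in either direction. The falls were 3 without F20 replicates 4 and 5 and 0 without F18 replicate 2. The small heat shock protein *Hspb1* rose by 1.41 ± 0.20, the extracellular superoxide dismutase *Sod3* by 1.29 ± 0.18 and the hypoxia-responsive *Ndrg1* by 0.81 ± 0.13 (SE, adjusted p = 3.07e-06, 3.24e-06 and 1.88e-05). For *Sod3* the difference was 0.82 (adjusted p = 5.19e-06) without F20 replicates 4 and 5. The glutathione transferase *Gsta4* fell by 0.74 ± 0.086 (adjusted p = 2.11e-07). Among 19 genes of proteolysis 10 rose and 3 fell (1 without F18 replicate 2). *Asb12* and *Klhl31*, substrate adaptors of ubiquitin ligases in muscle, rose by 1.66 ± 0.24 and 1.11 ± 0.16 (adjusted p = 5.65e-06 and 4.38e-06), and of the ligases best known from atrophy *Trim63* rose by 0.62 ± 0.11 while *Fbxo32* fell by 0.22 ± 0.070 (adjusted p = 8.70e-05 and 0.0169). Without F18 replicate 2, *Fbxo32* had -0.17 (adjusted p = 0.071).

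**Figure D5:**
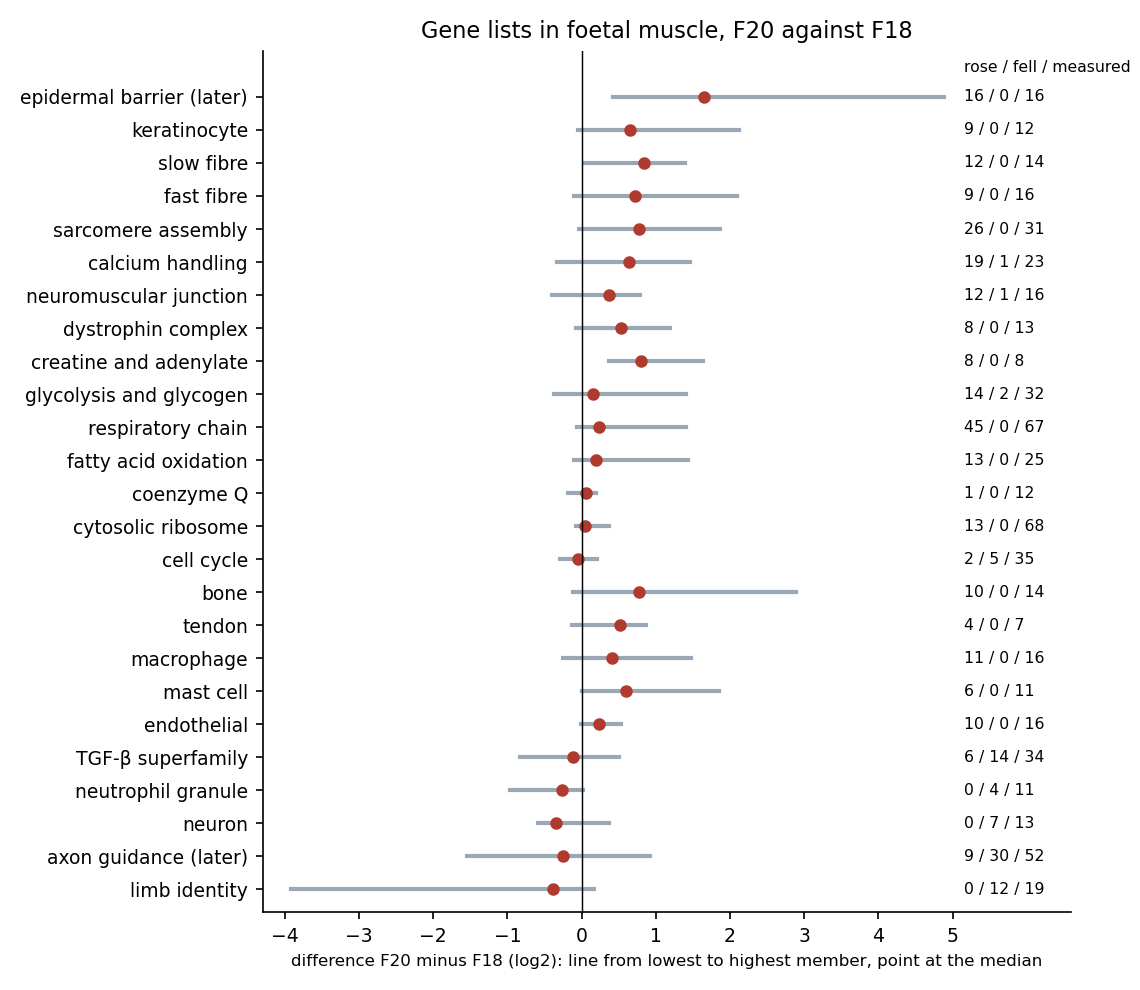
Differences F20 minus F18 (log2, horizontal axis) of 25 gene lists; each line runs from the lowest to the highest member, the point is the median, and the figures at the right count members that rose, fell and were measured. Epidermal, contractile, creatine and bone lists lie to the right of 0 (medians 0.65 to 1.65), limb identity and neuron lists to the left (-0.39 and -0.34), and coenzyme Q, ribosome and cell cycle lists at 0.05, 0.05 and -0.06; lists marked later were drawn up after values were seen.

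Some programmes showed no or few calls. Of 15 interferon response genes 0 passed in limma in either direction (median -0.09), and 1 had an unadjusted p of at most 0.05. Of 68 cytosolic ribosomal proteins 13 rose and 0 fell (13 of 68 is 19.1%, near the 14.8% of all genes; 1 rose without F20 replicates 4 and 5), with a median of 0.05. Without any 1 of F18 replicates 1 to 4 and F20 replicates 4 and 5, 2 to 8 rose. Of 10 lymphoid markers 1 rose and 0 fell (0 rose without F20 replicates 4 and 5, and 2 without F18 replicate 2 or 4 or F20 replicate 1 or 3). Of 14 circadian clock genes 5 rose and 2 fell (median 0.13; 4 rose and 1 fell without F20 replicates 4 and 5).

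Across all probe sets, the interval was set beside its neighbours. From F18 to F20, 218 probe sets rose and 31 fell more than 2-fold, against 159 and 33 from F16 to F18 (1.04% and 0.216%, 1.25% in all) and 60 and 15 from F20 to F22 (0.392% and 0.098%, 0.49% in all). Without F20 replicates 4 and 5, 157 rose and 21 fell more than 2-fold from F18 to F20. That setting has fewer F20 arrays and so less power, and its counts are not like for like with those from F16 to F18. At any size, 14.1% rose and 19.3% fell from F16 to F18 (33.4% in all), and 6.02% rose and 13.8% fell from F20 to F22 (19.8% in all). These intervals share the F18 or F20 arrays. Tested directly, the F18 to F20 change was more positive than the F16 to F18 change for 1429 probe sets (9.33%) and more negative for 1204 (7.86%, 17.2% in all), and the F20 to F22 change was more positive than the F18 to F20 change for 515 (3.36%) and more negative for 1005 (6.56%, 9.93% in all). Without F20 replicates 4 and 5 these totals were 1317 and 483.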

How the data were processed

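RNA of rat hind limb muscle was hybridised to Affymetrix arrays. The deposited values are log2 signals which the authors had normalised by robust multi-array averaging (RMA) in Affymetrix Expression Console (version not given in the sources used here); according to the labels, RNA integrity was above 8. Of 29214 probe sets in the table, 15310 had 1 gene symbol and were used, 323 had several and 13581 had none. A gene with more than 1 was represented by the brightest on average in muscle (14506 genes).

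All 30 muscle arrays, grouped by age from their titles (6 groups of 5), entered 1 linear model with moderated errors (limma 3.58.1, R 4.3.3; 24 residual degrees of freedom). The contrast F20 minus F18 and its differences from the neighbouring intervals were tested two-sided, with Benjamini-Hochberg adjustment over 15310 probe sets. A probe set was called at an adjusted p of at most 0.05. The p-values measure the spread between these samples. When 200 of 15310 probe sets were changed in simulated data, 92% of those changed by 0.5 and 100% of those changed by 1 or 2 (log2) were recovered with 5 false calls. The simulated noise was independent between arrays and lacked the split of the F20 arrays. These rates therefore do not carry over to the real comparison. Depth has no counterpart on arrays, where the number of arrays limits the precision.

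The comparison, genes and lists were chosen with earlier results of these data known, and lists of the epidermal barrier, serpins, interleukins, keratins, Hox genes and nerve guidance after their values were seen. Named were the 15 highest and 15 lowest differences with separate groups, the extremes of the contrasts between intervals, and, of each list, up to 8 members with large called differences and up to 2 without a call. All fibre and junction genes, myogenic factors and coenzyme Q genes could be named too. Other thresholds, samples, filters, priors, normalisations, weights, blocks and left-out arrays were tried as alternatives. Promoter sequences are those of RefSeq (GRCr8, 250 bases before the start).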

Additional observations from a re-analysis of the deposited data

Results flagged for a closer look

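In some groups of 5 arrays a single array lay apart, so that its gap to the next array took up more than 0.71 of the range of the group. This held for 21 of 344 pairs of a named gene and a group, while chance gives about 1 in 20. F18 replicate 4 was the lowest array for 10 muscle genes, with *Ckm*, *Myl3*, *Myh7*, *Cacng1*, *Chrng*, *Cav3*, *Pygm*, *Eno3*, *Ampd1* and *Trim63* at gap shares of 0.74, 0.806, 0.765, 0.731, 0.743, 0.873, 0.741, 0.762, 0.767 and 0.727. It was the highest array for *Myoz1* (0.714).

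F18 replicate 2 was the highest array for *Meis2* (0.888), *Isl1* (0.834), *Chrne* (0.782) and *Igfbp6* (0.863) and the lowest for *Bub1* (0.838). F18 replicate 5 was the highest for *Serpinb12* (0.721) and F18 replicate 1 for *Hmga2* (0.746). At F20, replicate 4 was the lowest for *Krt10* (0.765) and the highest for *Acp5* (0.803), and replicate 1 was the highest for *Myh3* (0.757).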

How the results depend on the processing

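Leaving out F20 replicates 4 and 5 together gave 1262 rising and 1355 falling probe sets, with 1317 and 483 in the contrasts with the interval before and after. Of the 2617 calls, 2450 were shared with the reported ones and 0 were opposite in direction. Leaving out F18 replicate 4 as well, an alternative chosen after seeing the data, gave 1107 rising, 1249 falling and 19 falling more than 2-fold, and 722 and 408 in the contrasts. With p up to 0.05 before adjustment the contrasts gave 4643 and 3927. Above the median signal, where fewer probe sets were tested, 134 rose and 8 fell more than 2-fold. Leaving out 1 array at a time gave 1761 to 2355 rising, 1933 to 2554 falling, 186 to 241 and 27 to 54 beyond 2-fold, and 1803 to 3018 and 647 to 1922 in the contrasts.

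Replicate numbers gave no sign of pairing. Deviations of same-numbered arrays correlated at -0.0135, -0.106, 0.125, 0.09 and -0.124, and those of other pairs at -0.178 to 0.197. Such values cannot exclude a pairing, which the labels do not settle. With the replicate block 2141 rose and 2378 fell, and 4451 of 4519 calls were shared.

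Signs changed for 5 of the 172 genes examined, none of which had passed the test. *Myh2* was 0.036, 0.00075 and 0.024 after quantile normalisation, median centring and array weights, -0.046 to 0.0063 without 1 array, 0.0089 without F20 replicates 4 and 5 and 0.030 without all 3. *Coq8a* was 0.0038 after quantile normalisation, -0.085 to 0.020 without 1 array and -0.16 without F20 replicates 4 and 5. *Tp63* was 0.22 with array weights, -0.18 to 0.13 without 1 array, 0.33 without F20 replicates 4 and 5 and 0.30 without all 3. *Myh1* was -0.020, -0.058 and -0.032, and *Col2a1* -0.064, -0.12 and -0.089, with weights, without F20 replicates 4 and 5 and without all 3. *Col2a1* was -0.022 to 0.16 without 1 array. The cause was not tested. With 5 arrays a group and unknown litters, small differences of single genes are the least certain.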
